A study of Mus musculus with 6 samples.

Results

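The genes examined here encode the machinery that passes newly made proteins across the membrane of the endoplasmic reticulum (ER), cuts off their signal peptides and attaches and trims N-glycans. The 36 genes were chosen by function, as subunits of the signal recognition particle (SRP) and its receptor, the SEC61 translocon, the TRAP complex, signal peptidase and oligosaccharyltransferase (OST), and as enzymes of glucose transfer and glycan trimming. They were located on the array through the RefSeq accession of each probe. All 36 were among the 20145 gene symbols of the array, with 54 probes, and 35 entered the tests, which covered 19122 genes. Sec11c did not, because in no genotype did its probe pass background on both arrays.

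The tissue was the tibial growth plate, the cartilage through which long bones lengthen, cut out by laser microdissection. The mice were untreated C57BL/6J males aged 4 weeks. There were 3 genotypes with 2 arrays each: ATF6aKO, labelled as a knockout of ATF6a (gene Atf6), ATF6bKO, labelled as a knockout of ATF6b (gene Atf6b), and WT, the wild type. The deleted part of either gene, the tissues in which it is deleted and whether the arrays of a genotype stand for separate animals are not given, so that limma's p-values reflect how arrays vary, and this variation may be technical. The 4 knockout arrays lay on 1 slide and were read in the Cy5 channel of a 2-channel protocol, while both WT arrays lay on another slide and were read with a 1-channel protocol. In each comparison with WT, genotype therefore cannot be told apart from slide, channel and protocol, whereas the 2 knockouts were compared within 1 slide.

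Proteins bound for secretion carry a signal sequence that SRP recognises on the ribosome and brings to its receptor on the ER. The SEC61 channel then passes the chain through the membrane, TRAP assists for some substrates, signal peptidase removes the signal and OST moves a preassembled glycan onto asparagine residues. Glucosidases trim that glycan so that lectin chaperones can hold the protein, and the glucosyltransferase Uggt1 marks misfolded proteins for another round. Growth plate chondrocytes secrete large amounts of collagen and proteoglycan through this route. ATF6a and ATF6b are ER membrane proteins that are cleaved under ER stress to release a transcription factor, and ATF6a is known to bind the ER stress response element (ERSE), with a CCAAT end that recruits NF-Y and a CCACG end that ATF6a contacts.

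Because that element is the known contact of ATF6a, promoters were read for it, from 250 bases before to 50 bases after each RefSeq start (GRCm38.p6). The table held promoters of 28 of the 36 members. The full ERSE (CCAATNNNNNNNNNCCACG, either strand) was in 0 of these 28 genes and in 0.119% of all 32851 promoters. The element TGACGTGG, known as a UPRE, was in 0 of the 28 and in 0.676% of all promoters. These zeros say only that the letters are not in this window. The shorter ERSE-II (ATTGGNCCACG) was in 1 member, Krtcap2, an OST subunit, and in 0.0365% of all promoters. It lay from base 18 to base 28 after the start, inside the 30 bases at chr3:89246481-89246510 (plus strand), where the capitals mark the match.

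Krtcap2: gggacacggATTGGACCACGgacggggcgt

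The 5-letter CCACG was in 18 of the 28 members (64.3%) against 35.5% of all genes with a promoter in the table. CCAAT was in 14 of the 28 (50%) against 41.1%, and 11 members held both; both counts take in either strand and the matches within longer elements. The median GC content was 59.7% for the promoters of the members and 52.7% for all promoters, and its part in the CCACG share was not tested. The 250 bases before the start are given here for 4 members of different complexes whose values are given further on, chosen after those values were seen to set Srprb, a member lower than WT in both knockouts, beside 3 members that were higher than WT in ATF6aKO. Capitals mark CCACG and CCAAT or their complements CGTGG and ATTGG. The positions are chr9:103202066-103202315 (minus strand) for Srprb, chr11:16508485-16508734 (minus) for Sec61g, chr6:88084223-88084472 (plus) for Rpn1 and chr19:8897807-8898056 (plus) for Ganab.

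Srprb: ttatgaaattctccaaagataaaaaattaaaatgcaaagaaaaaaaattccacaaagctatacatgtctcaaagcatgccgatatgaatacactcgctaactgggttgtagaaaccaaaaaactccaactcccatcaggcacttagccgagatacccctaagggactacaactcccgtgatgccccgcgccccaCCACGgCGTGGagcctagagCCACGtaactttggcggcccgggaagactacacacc

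Sec61g: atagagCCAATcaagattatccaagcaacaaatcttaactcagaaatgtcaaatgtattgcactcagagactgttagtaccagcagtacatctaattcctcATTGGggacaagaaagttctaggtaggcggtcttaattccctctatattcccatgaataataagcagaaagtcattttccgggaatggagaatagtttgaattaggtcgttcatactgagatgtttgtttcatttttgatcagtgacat

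Rpn1: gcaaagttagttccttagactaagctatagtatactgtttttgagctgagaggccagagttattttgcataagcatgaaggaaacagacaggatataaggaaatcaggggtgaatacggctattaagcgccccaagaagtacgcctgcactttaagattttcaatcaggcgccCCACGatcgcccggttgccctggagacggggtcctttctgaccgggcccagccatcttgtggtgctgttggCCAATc

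Ganab: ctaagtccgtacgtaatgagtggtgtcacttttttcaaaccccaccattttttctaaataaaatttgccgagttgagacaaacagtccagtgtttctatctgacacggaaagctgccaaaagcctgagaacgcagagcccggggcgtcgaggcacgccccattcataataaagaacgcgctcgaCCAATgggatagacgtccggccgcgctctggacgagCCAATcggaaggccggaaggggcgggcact

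Srprb had 3 CCACG matches and 0 CCAAT matches in this window. Sec61g and Ganab each had 2 CCAAT matches and 0 CCACG matches in it, and Rpn1 had 1 of each. This window leaves out the 50 bases after the start that the counts above took in. In those counts Ganab was among the members with CCACG, and Sec61g was not. A match is a description of the letters and not of binding.

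The scanner gave 86.9% to 96.7% of spots well above background on each array, with 0 saturated spots. The pairwise correlation of arrays over genes, which are not independent replicates, was 0.9704 to 0.9881 among the knockout arrays, 0.96 between the WT arrays and 0.8508 to 0.9057 between a knockout and a WT array. All values below are normalised log2 intensities and all differences are log2 differences, with the standard error (SE) of the fit and the Benjamini-Hochberg adjusted p of limma over all genes. A gene was called at an adjusted p under 0.05. Probe intensities are not comparable between genes.

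The targeted genes were read first. Atf6 measured 7.07 and 6.97 in ATF6aKO, 6.91 and 7.01 in ATF6bKO, against 7.05 and 7.28 in WT, and its difference of ATF6aKO from WT was -0.15 (adjusted p = 0.498). Atf6b measured 8.92 and 8.48 in ATF6aKO, 8.77 and 8.41 in ATF6bKO, against 9.06 and 9.19 in WT, with a difference of ATF6bKO from WT of -0.54 (adjusted p = 0.0824). Neither targeted gene was called in its own knockout. Since the deleted parts are not given, these probes may lie outside them and do not check the labels.

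In ATF6aKO the machinery was mostly higher than in WT. Of the 35 tested members, 19 were called higher and 2 lower, together 60.0%, against 42.7% of all genes tested, of which 20.3% were called higher and 22.3% lower. The median difference of the members was 0.86, that of all genes -0.03. Of the 19, Sec61a2 and Uggt1 entered the test only through their ATF6aKO arrays, so their calls follow in part from the filter. Where a probe had to be well above background on each of the 6 arrays, 17 of 32 members were called higher and 2 lower, where 46.1% of all genes were called. In ATF6bKO 7 members were called higher and 3 lower, together 28.6%, against 37.6% of all genes (17.3% higher and 20.3% lower), with a median of 0.19 against -0.05. The ATF6bKO median turned to -0.25 when the dimmest kept probe stood for each gene, a choice made after seeing the data. In the fit on all 6 arrays the share of members called was thus above the background in ATF6aKO and below it in ATF6bKO. This order was not kept in every fit with 1 array left out, and both comparisons share the WT arrays. Single arrays moved the member medians. In ATF6aKO against WT the median was 0.69 when ATF6aKO replicate 2 was left out (all genes -0.02). In ATF6bKO against WT it was 0.03 when ATF6bKO replicate 1 was left out (all genes -0.06). Dropping WT replicate 1 gave 1.37 in ATF6aKO and 0.57 in ATF6bKO, and dropping WT replicate 2 gave 0.66 and -0.08. The share of all genes called was also lower in each of these fits than with all 6 arrays. Their counts of called members are therefore not compared with those above. Calls of 6 members in ATF6aKO against WT held in every fit with 1 array left out and under 8 other ways of processing the scanner files, namely Srp68, Sec61a1, Sec62, Magt1, Tusc3 and Ganab. In ATF6bKO against WT the same was true of Srprb and Tusc3. Every other call was lost in at least 1 of these fits or ways. Srp68, Sec61a1 and Tusc3 had 1 probe each, so a change of filter or probe choice left their values as they were. The dimmest probe was not among these 8 ways.

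**Figure D1:**
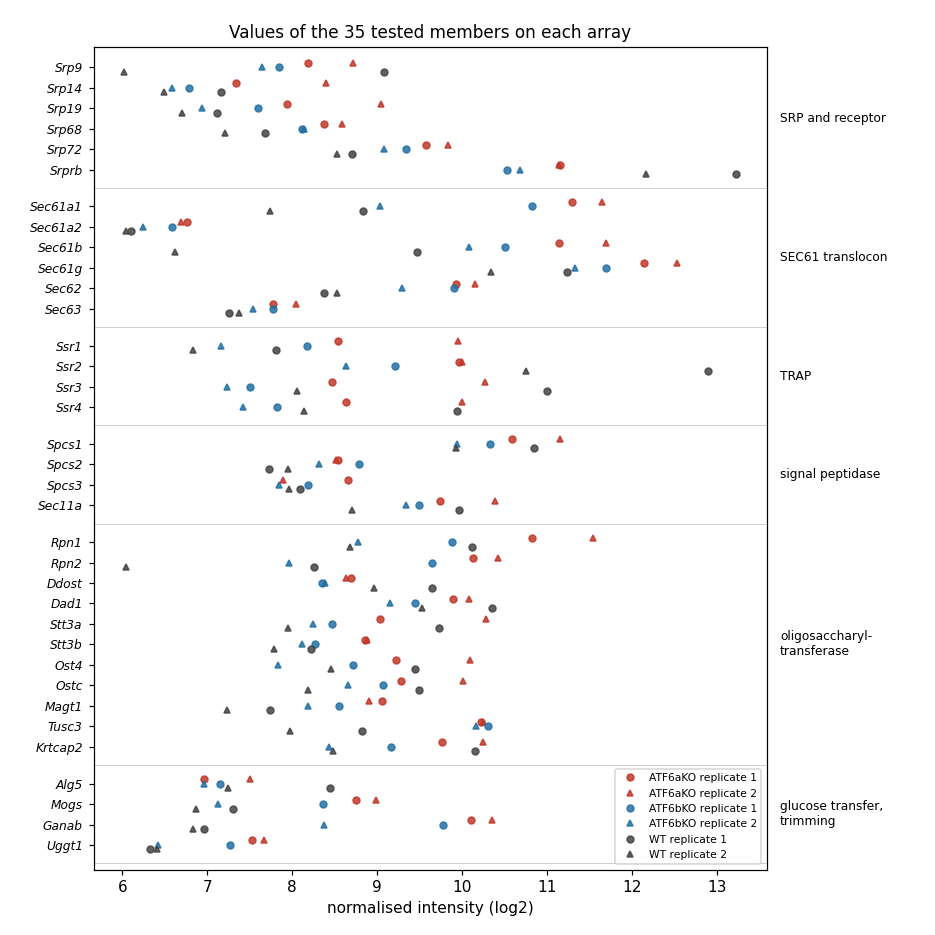
Normalised log2 intensity (horizontal axis) of each of the 35 tested members on each of the 6 arrays, grouped by complex; colours mark the genotype, circles replicate 1 and triangles replicate 2. For Sec61a1, Ganab and Tusc3 both ATF6aKO arrays lie to the right of both WT arrays, and for Srprb both lie to the left.

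**Figure D2:**
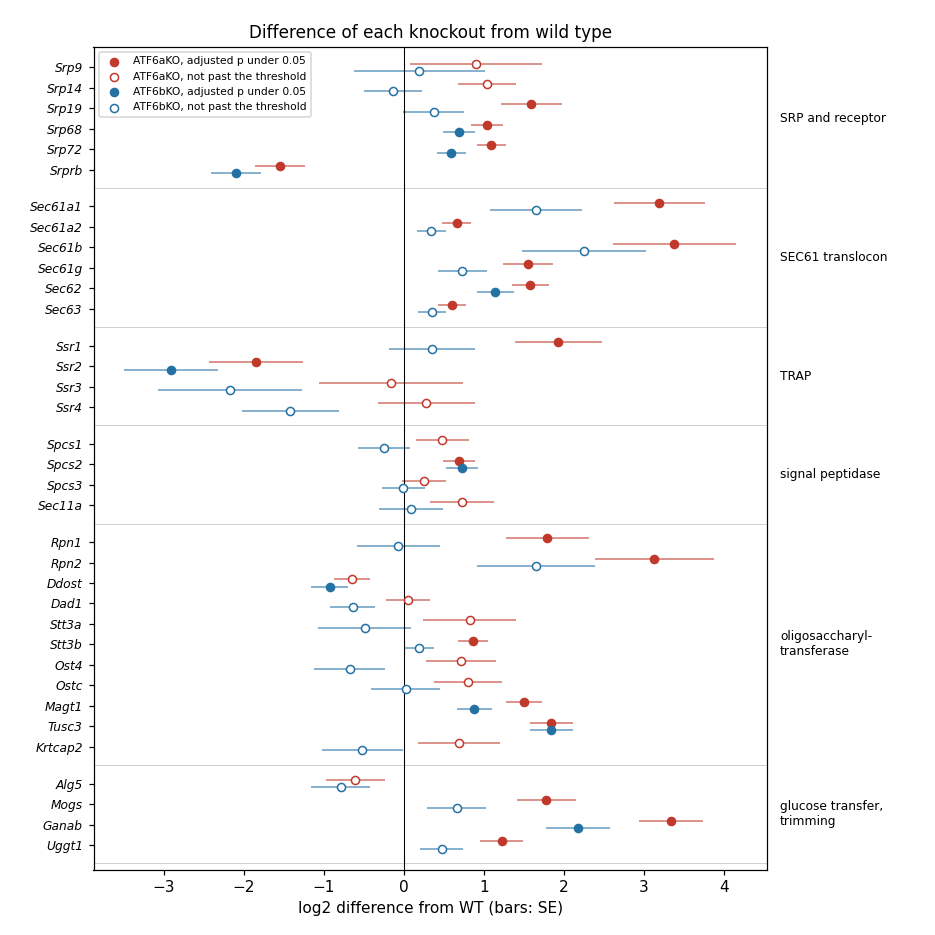
Log2 difference of each knockout from WT (horizontal axis) for the 35 members, with bars of 1 SE; filled points have an adjusted p under 0.05. Of the ATF6aKO points 19 are filled on the right of 0 and 2 on the left, and of the ATF6bKO points 7 and 3.

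SRP and its receptor deliver the ribosome to the membrane. Of these 6 members, 3 were called higher and 1 lower in ATF6aKO against WT (median 1.04), and 2 higher and 1 lower in ATF6bKO against WT (median 0.28, but -0.16 without WT replicate 2, 0.06 without ATF6bKO replicate 1, 0.49 without ATF6bKO replicate 2 and 0.63 without WT replicate 1). Srp68 and Srp72 form a heterodimer of the largest subunits of the particle. Srp68 measured 8.37 and 8.59 in ATF6aKO, 8.12 and 8.14 in ATF6bKO, against 7.68 and 7.21 in WT. Srp72 measured 9.58 and 9.84 in ATF6aKO, 9.34 and 9.08 in ATF6bKO, against 8.70 and 8.53 in WT. Both genes stood in the order ATF6aKO, ATF6bKO, WT with no overlap between genotypes. The difference from WT was 1.04 (SE 0.20, adjusted p = 0.00589) for Srp68 and 1.09 (SE 0.18, adjusted p = 0.00339) for Srp72 in ATF6aKO. In ATF6bKO it was 0.69 (SE 0.20, adjusted p = 0.0314) for Srp68 and 0.59 (SE 0.18, adjusted p = 0.0383) for Srp72. Neither ATF6bKO call held in every fit with 1 array left out, with differences of 0.45 to 0.92 and 0.46 to 0.72. A dimmer probe of Srp72 differed by -0.02 and -0.40 from WT in ATF6aKO and ATF6bKO.

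Srp19, which helps the particle's RNA to assemble with its signal-binding subunit, measured 7.94 and 9.05 in ATF6aKO, 7.60 and 6.94 in ATF6bKO, against 7.12 and 6.70 in WT. Only the ATF6aKO arrays were clear of WT, with ATF6aKO replicate 2 the highest, and the difference was 1.59 (SE 0.38, adjusted p = 0.0134) in ATF6aKO and 0.37 (adjusted p = 0.477) in ATF6bKO. The ATF6aKO call was lost without ATF6aKO replicate 2. A dimmer probe of Srp19 was not called in ATF6aKO, at 0.41 (adjusted p = 0.275). Srp9 and Srp14, which form the Alu-binding pair that slows elongation, were called in neither comparison, with differences of 0.90 and 1.04 in ATF6aKO (adjusted p = 0.399 and 0.0504) and 0.19 and -0.14 in ATF6bKO. The WT arrays of Srp9 lay at 9.08 and 6.02, the widest replicate gap of any member, and only the first was well above background.

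Srprb, the membrane-anchored subunit of the SRP receptor, was lower than in WT, unlike the called subunits of the particle. It measured 11.15 and 11.14 in ATF6aKO, 10.53 and 10.68 in ATF6bKO, against 13.23 and 12.17 in WT. Both knockouts lay below both WT arrays, by -1.55 (SE 0.31, adjusted p = 0.0069) in ATF6aKO and by -2.10 (SE 0.31, adjusted p = 0.00273) in ATF6bKO. This is a 2.94-fold and a 4.27-fold lower level. The call in ATF6bKO held in every fit with 1 array left out, and the call in ATF6aKO was lost without ATF6aKO replicate 2. A dimmer probe of Srprb was called in neither comparison, at -0.74 (adjusted p = 0.173) in ATF6aKO and -1.04 (adjusted p = 0.0791) in ATF6bKO.

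Of the SEC61 translocon, 5 members that passed the background filter in WT as well were called higher in ATF6aKO against WT, and so was Sec61a2, which passed it only through ATF6aKO (median of the 6, 1.57). In ATF6bKO against WT 1 of the 6 was called, also higher (median 0.93). Sec61a1, the channel-forming subunit, measured 11.30 and 11.65 in ATF6aKO, 10.83 and 9.04 in ATF6bKO, against 8.83 and 7.74 in WT. The arrays of the 3 genotypes did not overlap, but the ATF6bKO arrays were far apart. The difference from WT was 3.19 (SE 0.57, 9.12-fold, adjusted p = 0.00439) in ATF6aKO and 1.65 (SE 0.57, adjusted p = 0.055) in ATF6bKO. Its paralog Sec61a2 was dim, at 6.76 and 6.69 in ATF6aKO, 6.59 and 6.24 in ATF6bKO, against 6.10 and 6.04 in WT, where it was not well above background on either array. Setting aside the error of the fit, Sec61a2 was at least 1.58-fold higher in ATF6aKO than in WT (log2 difference 0.66, SE 0.18, adjusted p = 0.0204). In ATF6bKO it was well above background on 1 array only, so no bound is given. The measured difference there was 1.27-fold (log2 difference 0.34, SE 0.18, adjusted p = 0.163), and Sec61a2 was not called. The ATF6aKO bound equals the measured fold, because its own signal in WT was above the lowest signal that counted as well above background. Since its probe was kept only through ATF6aKO, its call is no support for a difference. The Sec61a2 call was lost without ATF6aKO replicate 1, ATF6aKO replicate 2 or WT replicate 2.

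Sec61g, a small subunit that clamps the channel, measured 12.15 and 12.53 in ATF6aKO, 11.70 and 11.33 in ATF6bKO, against 11.24 and 10.34 in WT. The genotypes did not overlap, and the difference was 1.55 (SE 0.31, adjusted p = 0.00638) in ATF6aKO and 0.73 (adjusted p = 0.099) in ATF6bKO. Sec62 and Sec63 help post-translational transport, Sec63 by engaging the luminal chaperone BiP. Sec62 measured 9.93 and 10.15 in ATF6aKO, 9.91 and 9.29 in ATF6bKO, against 8.38 and 8.53 in WT. Every knockout array of Sec62 was above both WT arrays, by 1.58 (SE 0.23, adjusted p = 0.0021) in ATF6aKO and 1.14 (SE 0.23, adjusted p = 0.00802) in ATF6bKO, and its dimmer probe was called higher in both as well. Sec63 was higher by 0.60 in ATF6aKO (adjusted p = 0.0312), and its difference in ATF6bKO was 0.35 (adjusted p = 0.166).

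The third channel subunit, Sec61b, gave opposite answers on its 2 probes. The brighter probe measured 11.14 and 11.70 in ATF6aKO, 10.51 and 10.08 in ATF6bKO, against 9.47 and 6.62 in WT. The dimmer probe measured 8.89 and 9.22 in ATF6aKO, 9.18 and 9.27 in ATF6bKO, against 10.72 and 10.97 in WT. On neither probe did a knockout overlap with WT, and the knockouts lay above WT on the brighter probe and below it on the dimmer. The brighter probe was higher in ATF6aKO by 3.38 (SE 0.77, adjusted p = 0.0112) and differed in ATF6bKO by 2.25 (SE 0.77, adjusted p = 0.0535). The dimmer probe was lower by 1.78 in ATF6aKO (log2 difference -1.78, adjusted p = 0.000782) and by 1.62 in ATF6bKO (log2 difference -1.62, adjusted p = 0.00124). The direction of Sec61b is therefore not settled by this array. Without it and Sec61a2, 4 members of the translocon (Sec61a1, Sec61g, Sec62 and Sec63) were called higher in ATF6aKO. Of these, the calls of Sec61g and Sec63 did not hold in every fit with 1 array left out. Their differences in those fits were 1.11 to 2 and 0.46 to 0.74.

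The TRAP complex, which assists the insertion of weak signal sequences, was split. In ATF6aKO against WT 1 of its 4 members was called higher and 1 lower (median 0.06), and in ATF6bKO against WT 0 were higher and 1 lower (median -1.79). These medians rested on single arrays. In ATF6aKO the median was -1.13 without WT replicate 2, -0.74 without ATF6aKO replicate 2, 0.85 without ATF6aKO replicate 1 and 1.24 without WT replicate 1, and in ATF6bKO leaving out WT replicate 2 gave -2.98 and leaving out WT replicate 1 gave -0.61. Ssr1, the alpha subunit, measured 8.54 and 9.95 in ATF6aKO, 8.18 and 7.16 in ATF6bKO, against 7.81 and 6.83 in WT. Its ATF6aKO arrays were above both WT arrays and its ATF6bKO arrays overlapped with them, with differences of 1.93 (SE 0.54, adjusted p = 0.0234) and 0.35 (adjusted p = 0.635). Ssr2, the beta subunit, measured 9.96 and 10 in ATF6aKO, 9.21 and 8.63 in ATF6bKO, against 12.90 and 10.76 in WT. Both knockouts were below both WT arrays of Ssr2, by -1.85 (SE 0.59, adjusted p = 0.039) in ATF6aKO and -2.91 (SE 0.59, 7.51-fold lower, adjusted p = 0.00832) in ATF6bKO. Neither Ssr2 call held in every fit with 1 array left out, with differences of -2.92 to -0.78 in ATF6aKO and -3.98 to -1.84 in ATF6bKO. Both were lost with trended and robust variances (adjusted p = 0.161 and 0.0676), and the ATF6aKO call also with the processed signal (adjusted p = 0.0877).

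Ssr3 and Ssr4, the gamma and delta subunits, were not called. Their differences from WT were -0.16 and 0.28 in ATF6aKO and -2.17 and -1.42 in ATF6bKO (adjusted p = 0.097 and 0.104). On the second kept probe of Ssr3 the ATF6aKO difference was 1.79 (adjusted p = 0.0135) and the ATF6bKO difference 0.21 (adjusted p = 0.721). WT replicate 1 was the highest array for TRAP, with a median deviation of 1.76 from the mean of the 6 arrays, against -0.61 on WT replicate 2.

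Few members of signal peptidase passed the test. In each comparison with WT 1 of its 4 tested members was called, Spcs2, with medians of 0.59 in ATF6aKO and 0.04 in ATF6bKO. Without WT replicate 2 these were 0.14 and -0.31, without WT replicate 1 the ATF6bKO median was 0.41, and without ATF6bKO replicate 1 and 2 it was -0.09 and 0.17. Spcs2, an accessory subunit, measured 8.54 and 8.52 in ATF6aKO, 8.79 and 8.32 in ATF6bKO, against 7.73 and 7.95 in WT. Every knockout array was above both WT arrays, by 0.69 (SE 0.20, adjusted p = 0.0273) in ATF6aKO and 0.72 (SE 0.20, adjusted p = 0.0268) in ATF6bKO. The dimmer probe of Spcs2 differed by -0.39 in ATF6bKO and was not called. With the mean over probes Spcs2 was called in neither comparison, at 0.37 and 0.16. Neither Spcs2 call held in every fit with 1 array left out, with differences of 0.58 to 0.80 in ATF6aKO and 0.48 to 0.95 in ATF6bKO. Spcs1 and Spcs3 differed from WT by 0.48 and 0.25 in ATF6aKO and by -0.25 and -0.01 in ATF6bKO, and neither was called. The dimmer probe of Spcs3 was called higher in ATF6aKO (1.2, SE 0.24, adjusted p = 0.00631) and not in ATF6bKO (0.43, adjusted p = 0.193), and with the mean over probes Spcs3 was called in ATF6aKO (0.73, adjusted p = 0.0164).

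Sec11a and Sec11c are the alternative catalytic subunits of signal peptidase. Sec11a measured 9.74 and 10.39 in ATF6aKO, 9.50 and 9.34 in ATF6bKO, against 9.96 and 8.70 in WT, so that the genotypes overlapped, with differences of 0.73 (adjusted p = 0.171) and 0.09 (adjusted p = 0.877). Sec11c measured 6.15 and 6.74 in ATF6aKO, 6.18 and 5.89 in ATF6bKO, against 7.21 and 6.02 in WT. It was well above background on ATF6aKO replicate 2 and WT replicate 1 only, and no fold is given.

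The OST complex transfers the glycan. Of its 11 members, 5 were called higher and 0 lower in ATF6aKO against WT (median 0.82), and 2 higher and 1 lower in ATF6bKO against WT (median -0.07). Without WT replicate 2 the medians were 0.21 and -0.79, and without WT replicate 1 they were 1.53 and 0.41. Leaving out ATF6aKO replicate 2 gave 0.45 in ATF6aKO, and leaving out ATF6bKO replicate 1 or 2 gave -0.60 or 0.22 in ATF6bKO. Its catalytic subunits are Stt3a, which works beside the translocon, and Stt3b, which also modifies sites that Stt3a skipped. Stt3a measured 9.03 and 10.28 in ATF6aKO, 8.47 and 8.25 in ATF6bKO, against 9.73 and 7.95 in WT. Stt3b measured 8.86 and 8.88 in ATF6aKO, 8.27 and 8.11 in ATF6bKO, against 8.22 and 7.79 in WT. The WT arrays of Stt3a spanned most of the knockout values, while those of Stt3b lay below both ATF6aKO arrays. Stt3b was higher in ATF6aKO by 0.86 (SE 0.19, adjusted p = 0.01), and Stt3a differed by 0.82 with a wider error (SE 0.58, adjusted p = 0.287). A dimmer probe of Stt3b was not called in ATF6aKO, at 0.59 (adjusted p = 0.112). In ATF6bKO the differences were 0.19 for Stt3b (adjusted p = 0.471) and -0.49 for Stt3a (adjusted p = 0.54), and neither was called.

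Magt1 and Tusc3 are the alternative oxidoreductase subunits of the Stt3b form of OST. Magt1 measured 9.06 and 8.90 in ATF6aKO, 8.55 and 8.19 in ATF6bKO, against 7.74 and 7.23 in WT. Tusc3 measured 10.22 and 10.25 in ATF6aKO, 10.31 and 10.17 in ATF6bKO, against 8.82 and 7.97 in WT. Both genes were above WT on every knockout array. The difference of Magt1 from WT was 1.5 (SE 0.22, adjusted p = 0.00233) in ATF6aKO and 0.88 (SE 0.22, adjusted p = 0.0192) in ATF6bKO, and the dimmer Magt1 probe was called in ATF6aKO but differed by -0.02 in ATF6bKO. For Tusc3 it was 1.84 in both, with adjusted p of 0.00214 in ATF6aKO and 0.00252 in ATF6bKO. Tusc3 had the same size of difference in both knockouts, and -0.01 (SE 0.27) separated them.

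Rpn1 and Rpn2, the ribophorins, are large accessory subunits of OST. Rpn2 measured 10.13 and 10.42 in ATF6aKO, 9.65 and 7.96 in ATF6bKO, against 8.26 and 6.04 in WT. Rpn2 was clear of WT in ATF6aKO and overlapped with it in ATF6bKO, with differences of 3.13 (SE 0.74, adjusted p = 0.0128) and 1.65 (SE 0.74, adjusted p = 0.116). Rpn2 was well above background on 1 of the 2 WT arrays, and with the scanner's processed signal its ATF6aKO difference was 5.25 and not called (adjusted p = 0.0557), nor was it called with trended and robust variances (adjusted p = 0.101). Rpn1 was higher in ATF6aKO by 1.79 (SE 0.52, adjusted p = 0.0285) and differed by -0.07 in ATF6bKO. Ddost, another accessory subunit, was lower in ATF6bKO (log2 difference -0.93, SE 0.23, adjusted p = 0.018), and its difference in ATF6aKO was -0.65 (adjusted p = 0.058). Both ribophorin calls were lost when either ATF6aKO array was left out, and the Rpn1 call also without WT replicate 2. The Ddost call was lost when either ATF6bKO array or WT replicate 1 was left out. The small subunits Dad1, Ost4, Ostc and Krtcap2 were called in neither comparison, with differences of 0.05 to 0.80 in ATF6aKO and -0.68 to 0.02 in ATF6bKO. A second, dimmer probe of Dad1 was called lower in both (log2 differences -1.08 and -0.94).

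Of the 4 members for glucose transfer and trimming, 3 were called higher and 0 lower in ATF6aKO against WT (median 1.5) and 1 higher in ATF6bKO against WT (median 0.56, but 0.05 without ATF6bKO replicate 1 and 1.08 without ATF6bKO replicate 2). With the dimmest kept probe of each gene in place of the brightest, a choice made after seeing the data, these medians were -0.33 and -0.83. Ganab, the catalytic subunit of glucosidase II, measured 10.11 and 10.36 in ATF6aKO, 9.78 and 8.37 in ATF6bKO, against 6.96 and 6.83 in WT. Every knockout array of Ganab was above both WT arrays, by 3.34 (SE 0.40, 10.1-fold, adjusted p = 0.00114) in ATF6aKO and 2.18 (SE 0.40, 4.53-fold, adjusted p = 0.00559) in ATF6bKO. The dimmer Ganab probe was called in neither, at -0.05 (adjusted p = 0.908) and -0.88 (adjusted p = 0.0543).

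Mogs, glucosidase I, which removes the outermost glucose, measured 8.75 and 8.99 in ATF6aKO, 8.36 and 7.13 in ATF6bKO, against 7.30 and 6.87 in WT. Mogs was clear of WT in ATF6aKO and not in ATF6bKO, with differences of 1.78 (SE 0.37, adjusted p = 0.0078) and 0.66 (adjusted p = 0.199). Uggt1 was the other member with probes called in opposite directions. Its brighter probe measured 7.53 and 7.67 in ATF6aKO, 7.27 and 6.42 in ATF6bKO, against 6.33 and 6.41 in WT, a difference of 1.22 in ATF6aKO (SE 0.27, adjusted p = 0.00971), and was well above background on both ATF6aKO arrays and on 1 array of each other genotype. Its dimmer probe measured 6.10 and 6.09 in ATF6aKO, 6.44 and 6.18 in ATF6bKO, against 6.93 and 7.64 in WT, a difference of -1.19 in ATF6aKO (adjusted p = 0.00789). The direction of Uggt1 is not settled either. Alg5, which makes the glucose donor dolichyl phosphate glucose, was called in neither comparison, at -0.61 and -0.79.

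Over the named probes, 41.9% were called in ATF6aKO against WT and 36.5% in ATF6bKO against WT. Of the members, 17 had 2 or more kept probes. In ATF6aKO against WT their probes were called in opposite directions in 2 (Sec61b and Uggt1, 11.8%), against 362 of the 4859 such genes on the whole array (7.45%). In ATF6bKO against WT this was so in 0 members and in 5.91% of genes. Without regard to calls, probes differed in sign in 7 of the 17 members in ATF6aKO (41.2%, against 45.1% of such genes on the array) and in 12 of the 17 in ATF6bKO (70.6%, against 46.3%).

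**Figure D3:**
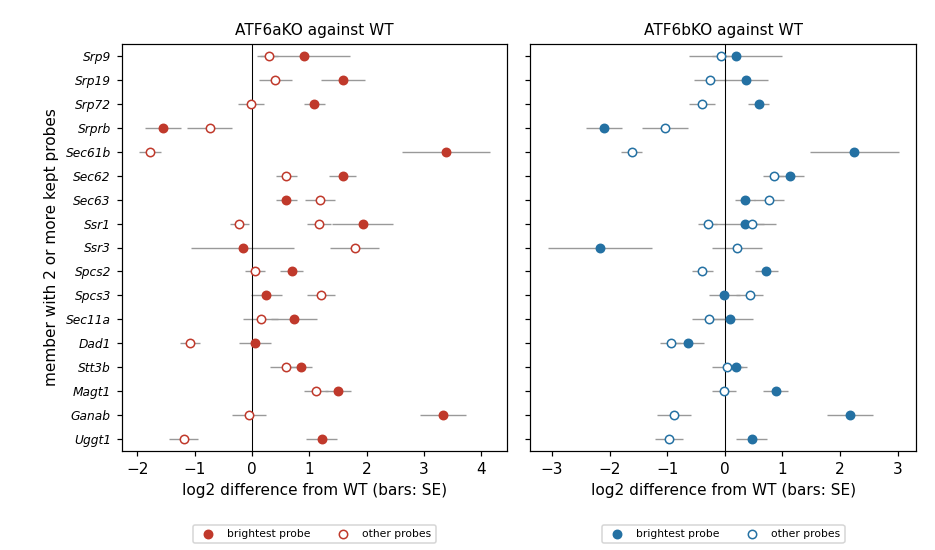
Log2 difference from WT (horizontal axis, bars of 1 SE) of every kept probe of the 17 members with 2 or more, for ATF6aKO on the left and ATF6bKO on the right; filled points are the brightest probe, which stands for the gene, and open points the others. The probes of Sec61b and Uggt1 lie on opposite sides of 0 in both panels, and those of Sec62 on the same side.

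Between the knockouts, which shared a slide, a channel and a protocol, most members had higher values in ATF6aKO, but the fit called none of them. In this limma fit 0 members were called, as were 0% of all genes after adjustment, while 1169 of the 19122 genes had an unadjusted p under 0.05. The difference of ATF6aKO from ATF6bKO was positive in 33 of the 35 members, against 49.1% of all genes, and its median was 0.75 against 0.00. Both ATF6aKO arrays lay above both ATF6bKO arrays in 30 members, where 20.1% of all genes did so. An unadjusted p under 0.05 with the higher level in ATF6aKO was found for 16 members, against 5.09% of all genes, and for 0 members with the lower level. With 1 array left out the median stayed between 0.58 and 1.01, but the count at an unadjusted p under 0.05 was 2 without ATF6aKO replicate 2 and 0 without ATF6bKO replicate 2. The authors' value table, whose knockout columns follow the green channel, gave a median of -0.15.

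All of the 6 complexes had a positive median in ATF6aKO against ATF6bKO. It was 1.64 for TRAP, 0.94 for glucose transfer and trimming, 0.78 for OST, 0.63 for SEC61, 0.62 for SRP and its receptor and 0.45 for signal peptidase. With 1 array left out all 6 stayed positive, though without ATF6bKO replicate 2 the medians of SEC61 and of glucose transfer and trimming were both 0.39, without ATF6aKO replicate 2 that of TRAP was 1.03, and without ATF6bKO replicate 1 that of glucose transfer and trimming was 1.46. TRAP, the complex split against WT, had 4 of 4 members higher in ATF6aKO with arrays that did not overlap, by 1.06 for Ssr2 to 2.0 for Ssr3. Rpn1 had the smallest member p (difference 1.86, SE 0.52, unadjusted p = 0.00832, not called), followed by Stt3b (0.68, SE 0.19, unadjusted p = 0.00857, not called). The 2 members without a positive difference were Spcs2 at -0.03 and Tusc3 at -0.01. Srprb and Ssr2, lower than WT in both knockouts, were still lowest in ATF6bKO, with differences between the knockouts of 0.54 and 1.06.

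**Figure D4:**
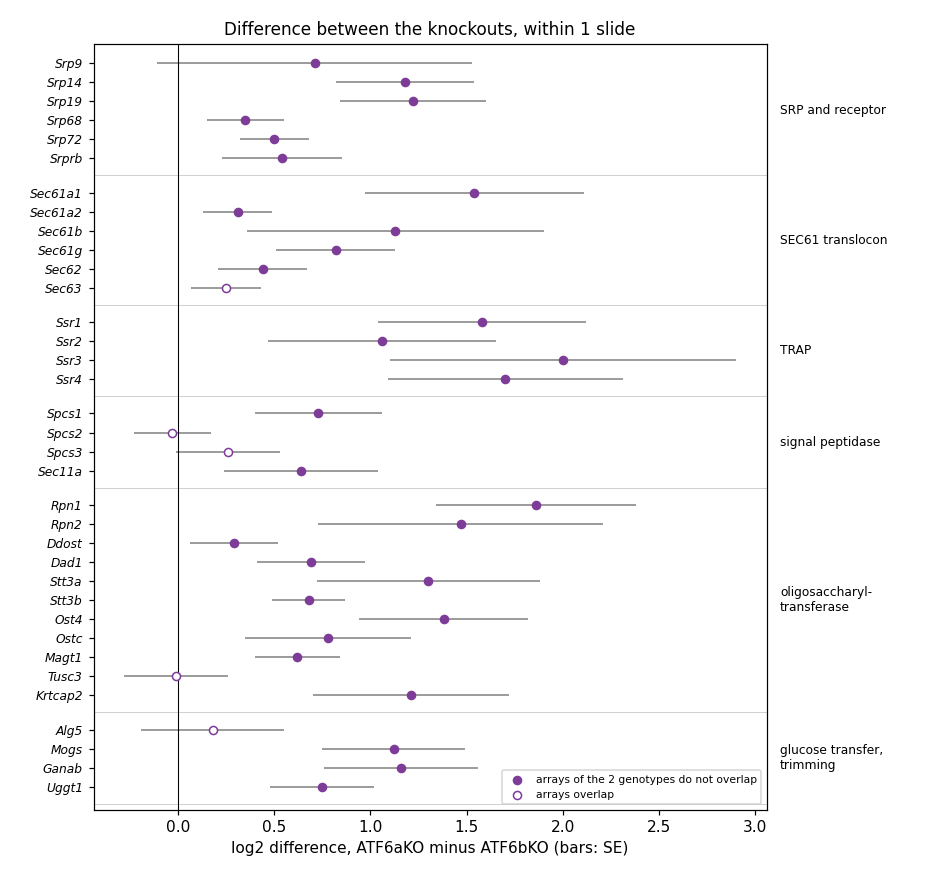
Log2 difference of ATF6aKO from ATF6bKO (horizontal axis, bars of 1 SE) for the 35 members by complex; filled points are members whose 2 ATF6aKO arrays both differ in 1 direction from both ATF6bKO arrays. There are 30 filled points, all right of 0, and 33 of the 35 points are right of 0.

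Between the arrays of 1 genotype, most members differed in the same direction. In ATF6aKO the value was higher on replicate 1 in 6 of the 35 members (median gap -0.28 for replicate 1 minus replicate 2), in ATF6bKO in 32 (median 0.37) and in WT in 31 (median 0.89). Over all genes the corresponding shares were 51.2%, 50.7% and 37.5%, and the median gaps 0.01, 0.00 and -0.08. By array, the median deviation of the 35 members from the mean of the 6 arrays was 0.36 and 0.79 in ATF6aKO, 0.05 and -0.46 in ATF6bKO, against -0.13 and -0.81 in WT. The lowest ATF6aKO array was thus above every array of the other genotypes on this measure, and the highest WT array was above the lowest ATF6bKO array.

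Cell type markers also differed between genotypes, some lists in the direction of the members and others against it. The 12 chondrocyte markers, among them the cartilage collagen and proteoglycan core genes Col2a1 and Acan, had median deviations of 1.35 and 1.44 in ATF6aKO, 0.47 and -0.61 in ATF6bKO, against -1.69 and -1.32 in WT, and their summed intensity ran from 28231 to 106938 on the knockout arrays and from 16882 to 21368 on the WT arrays. Of the 12, 10 were called higher and 1 lower in ATF6aKO against WT, and all 12 had a positive difference in ATF6aKO against ATF6bKO (median 1.35). At least 11 of the 12 were well above background on every array, so the labelled tissue's markers were present throughout. Within WT the chondrocyte markers were lower on the first array than on the second, unlike the members. The 7 hypertrophic chondrocyte markers had median deviations of 0.80 and 0.95 in ATF6aKO, 0.35 and -0.40 in ATF6bKO, against -0.46 and -0.88 in WT. Like the members, they were lower on the first ATF6aKO array than on the second, and higher on the first array than on the second in ATF6bKO and WT. Their summed intensity ran from 3644 to 22132 in the knockouts and was 13230 and 1519 in WT, and 4 of the 7 were called higher in ATF6aKO and 3 in ATF6bKO against WT. The 7 osteoblast and osteocyte markers had a summed intensity of 83081 on WT replicate 1 and of 2101 to 4127 on the other 5 arrays, and their median deviation was 1.22 on WT replicate 1 and -0.53 to 0.08 elsewhere. The 7 osteoclast markers summed to 16835 on WT replicate 1 and to 1809 to 2806 on the other 5 arrays. Of these 7, 1 was called higher and 0 lower in each knockout against WT, with medians of -0.42 in ATF6aKO and -0.32 in ATF6bKO. Of the 9 endothelial markers 6 were called lower in ATF6aKO and 4 in ATF6bKO against WT, and they summed to 4812 and 4270 in WT and to 1947 to 2234 in the knockouts. The 5 erythroid markers summed to 31837 and 5594 in WT and to 1019 to 1584 in the knockouts, and 0 were called higher and 2 lower in each knockout. Such sums are weighted towards the brightest probes. On WT replicate 1 these included Col1a2 (16.02) for osteoblasts, Mmp9 (13.23) for osteoclasts and Hba-a1 (14.81) for red cells. The part of these marker levels in the member results was not tested. In tissue of mixed cells, fewer cells of a type and less RNA per cell cannot be told apart.

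**Figure D5:**
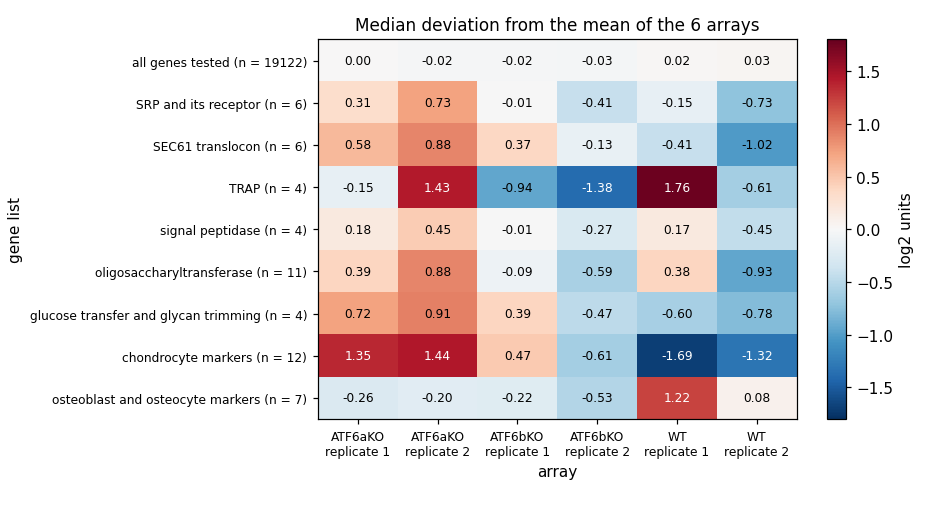
Median deviation of each gene list (rows) from its mean over the 6 arrays, in log2 units, on each array (columns); red is above and blue below the mean. The rows of the 6 complexes and of the chondrocyte markers are highest on the ATF6aKO arrays except TRAP, which is highest on WT replicate 1 (1.76), and the osteoblast and osteocyte markers are highest on WT replicate 1 (1.22).

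Neighbouring steps of the pathway were counted in the same way. Among 8 tested genes of other SRP, receptor and translocon partners 0 were called higher and 1 lower in ATF6aKO against WT (median 0.17), and 1 higher and 2 lower in ATF6bKO against WT (median -0.42). The gene called lower in ATF6aKO was Srpr, the alpha subunit of the SRP receptor and partner of Srprb, at -0.60 (adjusted p = 0.0489) in ATF6aKO and -0.82 (adjusted p = 0.0183) in ATF6bKO. On the probe that stood for each gene, both subunits of the SRP receptor were thus called lower than WT in both knockouts. Srpr had 1 probe, and the dimmer probe of Srprb was called in neither comparison.

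Of 22 genes for membrane insertion through the EMC, PAT and GET routes, 3 were called higher and 7 lower in ATF6aKO (median -0.31), and 4 higher and 9 lower in ATF6bKO (median -0.44). Ccdc47, a PAT subunit, was higher by 2.06 in ATF6aKO and 1.54 in ATF6bKO (adjusted p = 0.00184 and 0.00604), and Emc1, a scaffold of the EMC, by 0.81 and 0.90 (adjusted p = 0.0064 and 0.00514). Get3, the ATPase that carries tail-anchored proteins, had log2 differences of -1.77 and -1.76 (adjusted p = 0.000808 and 0.00102). Tmem147, a partner of the multipass translocon, had -1.41 and -1.81 (adjusted p = 0.00114 and 0.000783).

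Assembly of the lipid-linked glycan, the donor that OST uses, showed no common direction. Of 22 genes 6 were called higher and 6 lower in ATF6aKO (median -0.05), and 5 and 5 in ATF6bKO (median -0.10). Alg8, a glucosyltransferase, was higher by 1.34 in ATF6aKO and 1.2 in ATF6bKO (adjusted p = 0.00131 and 0.00218), and Alg13, part of the enzyme that adds the second sugar, by 0.75 and 0.74 (adjusted p = 0.00887 and 0.0106). Mpdu1, needed for use of dolichol-linked sugars, had -0.96 and -1.08 (adjusted p = 0.00305 and 0.00248), and Alg9, a mannosyltransferase, -0.84 and -0.98 (adjusted p = 0.00476 and 0.00321).

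Downstream of OST, 3 of 6 genes of the calnexin cycle and ER mannose trimming were called higher and 0 lower in each knockout, with medians of 0.85 and 0.41. Pdia3, the disulfide isomerase that works with calnexin, was higher by 2.76 in ATF6aKO (adjusted p = 0.00414) and by 1.48 in ATF6bKO (adjusted p = 0.046). Man1b1, an ER mannosidase, was higher by 1.12 and 1.01 (adjusted p = 0.00194 and 0.00333). Between the knockouts the median of this list was 0.80, near that of the members, while those of lipid-linked glycan assembly and membrane insertion were both 0.07.

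In the Golgi, 2 of 16 N-glycan processing genes were called higher and 6 lower in ATF6aKO (median -0.05), and 3 and 3 in ATF6bKO (median -0.17). Slc35a2, which carries UDP-galactose into the Golgi, was higher in ATF6aKO by 1.17 (adjusted p = 0.00352) and differed by 0.31 in ATF6bKO (adjusted p = 0.248). Mgat4a, a branching enzyme, was higher by 1.07 and 0.76 (adjusted p = 0.00475 and 0.0199), whereas its paralog Mgat4b had -0.80 and -0.63 (adjusted p = 0.0187 and 0.0491). Man2a2, a mannosidase, had -0.67 and -0.58 (adjusted p = 0.0172 and 0.033).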

How the data were processed

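Total RNA from laser-microdissected growth plate was amplified and labelled with Cy5 (150 ng RNA per sample), and hybridised to Agilent mouse arrays, per the labels' protocols. In the deposited scanner output, each spot has an intensity; the submitters' processing notes name Agilent Feature Extraction 10.7.1.1. The median spot and background intensities were used, of the red channel in the knockouts and of the only channel in WT, which the scanner output gives as green. The authors' value table holds log2 values; how it was scaled is not given in the sources used here, and it served only as an alternative. Between knockout arrays its differences followed the green channel (r of 0.808 to 0.825 over probes with a green signal) and not the labelled red one (r of -0.0302 to 0.101), and its column medians were -0.5 to 0.227. Its centring and array constants stay unknown.

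From these files, background was corrected with normexp (offset 50; limma 3.58.1, R 4.3.3). Control and flagged spots were left out (288 probes), replicate spots were averaged per probe, and quantile normalisation followed on the log2 scale. Probes were named by RefSeq accession through RefSeq's gene table (GRCm38.p6), which also gave the promoters. Probes passing background on both arrays of any genotype were kept, and each gene took the value of its brightest kept probe. lmFit and eBayes were run over 6 arrays with no covariate, with Benjamini-Hochberg adjustment over 19122 genes and a threshold of 0.05; the procedure was tested on simulated data. With 2 arrays per genotype, the number of arrays limits the precision. The members, lists and tests were chosen with earlier results of these data known. Values on every array were given for up to 4 called, non-overlapping members per complex, paralog pairs, members with opposite probes and members not well above background, and of each neighbouring list for up to 2 genes each way by smallest p. Alternatives covered background correction, scaling, filter, probe choice, variance, arrays in the fit, replicate block and the authors' table. Same-numbered arrays deviated with correlations of -0.0743, 0.197 and -0.156 in the 3 comparisons, so the replicate numbers were not treated as pairs.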

Additional observations from a re-analysis of the deposited data

How the results depend on the processing

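The 4-array comparisons with WT rest on 2 slides and on 2 arrays a genotype, and an array left out leaves 1, whose spread is then taken from the other genotypes. Under the 8 other ways of processing the scanner files, 17 to 22 members were called in ATF6aKO against WT, beside 36% to 46.1% of all genes. In ATF6bKO against WT it was 7 to 14 members, beside 34.7% to 41.1% of all genes. The replicate block gave 21, 11 and 0 called members in ATF6aKO against WT, ATF6bKO against WT and ATF6aKO against ATF6bKO. The shares of all genes were 39.7%, 34.7% and 0%. In ATF6bKO against WT, Srp72 lost its call and Sec61a1 (adjusted p = 0.0336) and Sec61b (0.0485) gained one. Crossing the numbers of the knockouts, an alternative added after seeing the data, gave 20 called members and 3.02% of all genes for ATF6aKO against ATF6bKO. Replicate 1 was the higher array in 6 of the 35 members in ATF6aKO and in 32 in ATF6bKO. The crossed block takes up that gap, so these calls follow from a pattern already seen and are no support for a difference. Scaling to the 75th percentile moved the median of all genes from -0.03 to 0.13 in ATF6aKO and from -0.05 to 0.15 in ATF6bKO, with member medians of 1.06 and 0.41. With the processed signal the ATF6bKO median was 0.63. With arrays left out, counts ran from 7 to 27 in ATF6aKO against WT, from 4 to 16 in ATF6bKO against WT and stayed at 0 between the knockouts, and medians from 0.66 to 1.37, from -0.08 to 0.57 and from 0.58 to 1.01. Against WT, the share of all genes called was lower in each of these fits than with all 6 arrays. The counts with arrays left out are therefore not compared with the others. In ATF6bKO against WT, Srp9 ranged from -1.34 without WT replicate 2 to 1.72 without WT replicate 1.

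On the authors' deposited values, 30 members were called in ATF6aKO against WT, where 50.8% of all genes were called. In ATF6bKO against WT it was 29 members and 51.7% of all genes. The medians were 3.9 and 4.15 beside 0.85 for all genes in each, and -0.15 between the knockouts. Members that turned direction with a call in at least 1 of both settings were Ssr3 (4.05), Ddost (2.3) and Alg5 (3.55) in ATF6aKO, and in ATF6bKO Srp14 (6.55), Ssr2 (0.5), Ssr3 (4.3), Ssr4 (4.25), Spcs1 (2.95), Spcs3 (2.46), Rpn1 (5.6), Ddost (2.95), Dad1 (2.95), Ost4 (2.7), Krtcap2 (4.25) and Alg5 (3.85).

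With the mean over probes Dad1 turned to -0.51 in ATF6aKO. With the dimmest kept probe, added after seeing the data, the medians were 0.6 and -0.25 in ATF6aKO and ATF6bKO against WT. Again counting those with a call in at least 1 of both settings, in ATF6aKO this turned Srp72 (-0.02), Sec61b (-1.78), Ssr1 (-0.22), Ssr3 (1.79), Dad1 (-1.08), Ganab (-0.05) and Uggt1 (-1.19), and in ATF6bKO Srp72 (-0.4), Sec61b (-1.62), Spcs2 (-0.39), Magt1 (-0.02), Ganab (-0.88) and Uggt1 (-0.97). The causes were not tested.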
